A study of Homo sapiens with 9 samples.

Results

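The data described here are the 3 arrays of U87 cells transfected with a control miRNA, out of 9 arrays in the series. They were chosen by their titles, and every probe set outside the AFFX control probes was used, with no comparison to the other 6 arrays. U87 is an established human glioblastoma cell line that grows as an adherent culture. The 9 cultures fall into 3 groups of 3 biological replicates, which received miR-376a*A, miR-376a*G or the control miRNA, each as a duplex at 50 nM in Lipofectamine RNAiMAX for 24 hours. The control cells therefore carry a transfected duplex and lipid reagent, the duplex's sequence is not given in the sources used here, and no untransfected culture was analysed here. Total RNA was primed with oligo(dT), amplified, labelled with biotin and hybridised to an Affymetrix array with several probe sets for many genes, 1 array per culture. The values are therefore those of a baseline in a single cell line, and p-values or spreads over these 3 cultures say nothing about other glioma lines.

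Each probe set gives a signal, a brightness in linear units, whose trimmed mean lies close to 100 on every array. Of 54613 probe sets, 41091 carry 1 gene symbol, and they represent 19775 genes, each taken here at its brightest probe set. Signal depends on how well a probe set binds as well as on the amount of RNA, so an order of genes by signal is an order of array signal and not of transcript number. No detection calls were analysed here. A background line was therefore set on each array at the 95th percentile of the signals of 149 genes of odorant and taste receptors, hair keratin-associated proteins and defensins. The line lay at a signal of 28.2 on replicate 1, 29.6 on replicate 2 and 30.6 on replicate 3. A gene is called above the line when its signal exceeded it on all 3 arrays, and under the line when it fell short on all 3. A gene under the line was not distinguished from background, which does not show that its RNA was missing.

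Glioblastoma cells in culture keep some features of glia and gain others of mesenchymal cells, the matrix-producing cells of connective tissue. The classes drawn from tumour expression profiles are called mesenchymal, proneural and classical, and each has its own marker genes. Astrocytes, the glia thought to be closest to these tumours, are known by the filament protein GFAP, the water channel AQP4 and glutamate transporters.

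In these cells 10293 of 19775 genes (52.1%) were above the line, 8686 (43.9%) were under it and 796 (4.03%) lay on both sides. Of single probe sets, 21669 of 54613 (39.7%) were above the line, and among the 13522 without a single gene symbol 3050 (22.6%) were. By the gene types of RefSeq, 9816 of 16521 protein-coding genes (59.4%), 344 of 2658 long non-coding RNA genes (12.9%) and 99 of 424 transcribed pseudogenes (23.3%) were above the line. A gene list with a share near 52.1%, or near the 59.4% of protein-coding genes, does not stand out by its count. Among the genes above the line, 1347 had a mean signal under 2 times the line and 4118 reached 10 times the line or more. The brightest gene, TMSB10, had a mean signal of 3527 ± 275 (SD, n = 3), and from here ± stands for the SD over the 3 arrays. The 100th gene reached 2259, the 1000th 990.2 and the 10000th 38.5. The fall over the first 100 genes was thus 1.56-fold, against 91.7-fold over the first 10000. The 1000 brightest genes on each array held 36.6%, 38.8% and 37.5% of the summed gene signal, while genes under the line held 1.94%, 1.99% and 2.05% of it. Of 7039 genes above the line with more than 1 probe set, 2744 had every probe set above it. In 3740 another probe set was under it on all arrays. Probe set counts are given below for some of the genes named, and the probe sets of the others may also differ.

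**Figure D1:**
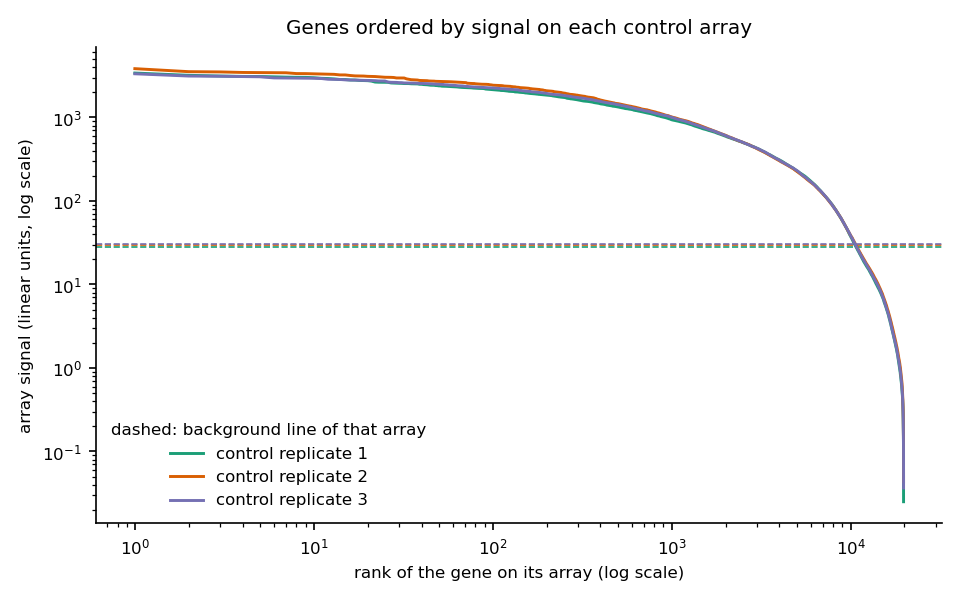
Signal of every gene (vertical axis, linear units on a log scale) against its rank on its own array (horizontal axis, log scale) for the 3 control replicates, with each array's background line dashed. The 3 curves lie on each other from the highest signals of 3403, 3842 and 3335 down to the lines at 28.2, 29.6 and 30.6, and 10721, 10736 and 10586 genes exceed the line of their array.

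The 3 cultures gave much the same profile. Over all genes, log2 signals correlated with Pearson's r of 0.971 between replicates 1 and 2, 0.974 between 1 and 3 and 0.975 between 2 and 3. Over the genes above the line r was 0.979, 0.986 and 0.993, and over those under it 0.798, 0.817 and 0.817. These are correlations across genes, which are not independent replicates. The median SD of log2 signal was 0.14 for genes above the line and 0.43 for genes under it. By signal, it was 0.57 for genes under 10 units, 0.17 from 30 to 100 units and 0.11 at 1000 units or more, so the brightest genes were the most evenly measured. Replicate 1 stood somewhat apart. Among the genes above the line it was the array farthest from the other two for 5622 genes, against 2964 for replicate 2 and 1707 for replicate 3. Between 79 and 89 of the 100 brightest genes were shared by any 2 arrays.

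The highest signals belonged to the machinery of protein synthesis, the cytoskeleton, the mitochondrial genome and metal binding. TMSB10, an actin monomer-binding thymosin, gave 3403, 3842 and 3335 on replicates 1, 2 and 3. TUBB, a beta-tubulin, gave 3134, 3509.6 and 3116, and S100A6, a calcium-binding protein, gave 3064, 3535 and 3133. All 3 genes were highest on replicate 2. ND2, COX2, ND4 and COX1, which encode subunits of respiratory complexes in the mitochondrial genome (COX2 here is not the prostaglandin synthase), had mean signals of 3155, 3020.4, 2903 and 2698 and were all among the 40 brightest genes. B2M, the light chain of HLA class I, gave 3101, 3429 and 2968, and ACTB, cytoplasmic beta-actin, gave 2944, 3146 and 2760.2. Others among the 40 brightest were the ubiquitin gene UBB (2918), the iron-storage chain FTL (2686), the tetraspanin CD63 (2630.3) and the protease subunit CAPN2 (2724).

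Genes for ribosomal proteins, the protein part of the ribosome, made up a large part of the top. Of 53 measured cytosolic ribosomal protein genes, 52 were above the line, 13 were among the 40 brightest genes and 33 among the 100 brightest. Their median signal was 2104 on replicate 1, 2630 on replicate 2 and 2342 on replicate 3. RPLP1, of the ribosomal stalk, gave 3021, 3429.5 and 3087, and RPS12, of the small subunit, gave 2893, 3230.2 and 2738. Each was above the line in 1 of its 2 probe sets and under it in the other. The single member under the line was RPL36A at 8.08, 15.3 and 17.9. RPLP2, a partner of RPLP1 in the stalk, gave only 47.7, 78.2 and 62.1, with 1 of its 2 probe sets above the line and the other under it. The elongation factors EEF1A1 (2916) and EEF2 (2695) were also among the 40 brightest. EEF1A2, the form of EEF1A known from neurons and muscle, reached 42.2, 38.04 and 38.4, just above the line. Many of these probe sets can also bind the numerous processed pseudogenes of these genes, which the array cannot separate.

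Transcripts of ribosomal proteins typically begin at a cytosine followed by a run of pyrimidines. The promoters of RPS12 and RPLP1 are shown because both are among the 20 brightest genes and carry such letters just after the annotated start of the transcript. The sequences are from RefSeq (GRCh38.p14), on the plus strand at chr6:132814319-132814618 and chr15:69452568-69452867, from 250 bases before the annotated start to 50 after it, and the capitals mark CTTTCC.
RPS12: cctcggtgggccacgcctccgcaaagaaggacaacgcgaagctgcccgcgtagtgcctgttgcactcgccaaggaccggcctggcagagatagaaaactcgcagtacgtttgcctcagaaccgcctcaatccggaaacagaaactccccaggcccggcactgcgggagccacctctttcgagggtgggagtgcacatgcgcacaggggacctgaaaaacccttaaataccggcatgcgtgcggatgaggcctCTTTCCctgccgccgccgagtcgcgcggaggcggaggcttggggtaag
RPLP1: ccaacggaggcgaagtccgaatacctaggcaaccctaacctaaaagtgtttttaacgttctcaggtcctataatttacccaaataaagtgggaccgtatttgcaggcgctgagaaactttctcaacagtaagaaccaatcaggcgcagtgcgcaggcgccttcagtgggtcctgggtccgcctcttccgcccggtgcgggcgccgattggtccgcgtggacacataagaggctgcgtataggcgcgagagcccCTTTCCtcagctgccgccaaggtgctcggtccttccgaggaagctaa
CTTTCC or CTTTTCC, on the transcribed strand and lying between 15 bases before and 40 bases after the start, was present in 44.7% of the 47 ribosomal protein promoters in the table. The same letters were present in 2.93% of all 15360 promoters of measured genes. The ETS motif CCGGAAG, on either strand, was in 36.2% of ribosomal protein promoters and in 14.4% of all. A match to letters is a description and not a binding site.

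Metallothioneins, small cysteine-rich proteins that bind zinc and copper, were mostly bright. Of 9 measured members, 8 were above the line and 5 were among the 100 brightest genes. MT2A gave 3197, 3459 and 2977, MT1F 2367, 2833 and 2953 and MT1X 2360.3, 2611 and 2394 on replicates 1, 2 and 3. MT1M was dimmer at 77.1, 101 and 101. The brain form MT3 reached 39.1, 36.1 and 35.6, which is close to the line, and MT4, known from squamous epithelium, stayed under it at 10.04, 14.4 and 2.62. The MT1 genes are near-identical copies on chromosome 16, so the signals of MT1E, MT1F, MT1G, MT1H and MT1X may share RNA of each other and are not 5 independent measurements. Their promoters are shown because metal response elements, the sites of the zinc-sensing factor MTF1, are the known switch of this family. Capitals mark TGCNCNC on either strand in the RefSeq promoters (GRCh38.p14, plus strand) of MT2A at chr16:56608334-56608633, MT1X at chr16:56682220-56682519 and MT4 at chr16:56564823-56565122.
MT2A: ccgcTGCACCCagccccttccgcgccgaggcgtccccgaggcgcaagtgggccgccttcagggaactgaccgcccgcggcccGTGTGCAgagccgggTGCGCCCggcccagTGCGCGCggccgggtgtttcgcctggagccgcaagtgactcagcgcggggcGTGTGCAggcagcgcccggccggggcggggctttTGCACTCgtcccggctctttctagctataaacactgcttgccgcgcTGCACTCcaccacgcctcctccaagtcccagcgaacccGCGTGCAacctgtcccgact
MT1X: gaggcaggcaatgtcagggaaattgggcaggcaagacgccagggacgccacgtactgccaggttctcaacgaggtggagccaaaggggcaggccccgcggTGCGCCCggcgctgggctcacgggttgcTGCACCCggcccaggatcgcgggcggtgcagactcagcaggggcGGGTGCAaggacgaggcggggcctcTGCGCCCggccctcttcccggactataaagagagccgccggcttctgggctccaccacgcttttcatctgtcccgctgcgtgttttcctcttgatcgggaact
MT4: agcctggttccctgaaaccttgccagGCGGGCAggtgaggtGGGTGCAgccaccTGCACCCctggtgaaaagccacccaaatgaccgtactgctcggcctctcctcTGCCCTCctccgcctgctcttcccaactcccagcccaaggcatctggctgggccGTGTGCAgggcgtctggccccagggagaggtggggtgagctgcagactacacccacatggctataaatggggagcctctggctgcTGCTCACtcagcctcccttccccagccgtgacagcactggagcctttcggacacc
The window of MT2A held 8 matches and that of MT1X held 4. That of MT4, the gene under the line, held 6. TGCNCNC leaves the letter after TGC open. All matches of MT2A and MT1X have A or G there, and some of MT4, such as TGCCCTC and TGCTCAC, do not. Matches to a stricter motif were not counted, so these numbers do not settle whether such elements separate MT4 from the bright members. At least 3 matches to TGCNCNC were present in 9.91% of all promoters. The windows of MT2A and MT4 differed in CpG content, with 37 and 8 CpG dinucleotides.

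Many glycolytic enzymes were bright, and most of the members under the line are forms known from particular tissues. Of 22 measured genes 16 were above the line, and 5 of these were among the 100 brightest genes. ENO1, an enolase, gave 2992, 3283 and 2947, ALDOA, an aldolase, 2591, 2764 and 2428 and TPI1, the triosephosphate isomerase, 2354, 2726 and 2364. The 6 members under the line were ENO3 (19.4) and PGAM2 (5.99), known from muscle, PGK2 (18.9) and GAPDHS (17.3), known from testis, PKLR (6.90), known from liver and red cells, and HK3 (2.00). ENO2, an enolase known from neurons, was above the line at 1138, 1152 and 1058. Both hexokinases of growing cells were above it, HK1 at 1381 and HK2 at 569.7. Of 6 lactate dehydrogenase genes, LDHA (2436 ± 181) and LDHB (2154 ± 186) were above the line, and LDHC, LDHD and the LDHAL6 genes were under it. Among 12 glucose transporters 7 (58.3%) were above the line. Those above it were led by the neuronal type SLC2A3 at 667, 557 and 607 and the widespread SLC2A1 at 301, 316 and 292. The liver transporter SLC2A2 (0.684) and the insulin-regulated SLC2A4 (0.904) were under it.

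Most genes of protein quality control were above the line. Of 34 proteasome subunit genes 33 were above the line and 23 were among the 1000 brightest genes, with PSMD2 at 2228, 2277 and 2122 and PSMB7 at 1929.5, 2434 and 2149. PSMA8, the subunit of testis proteasomes, was the single one under it at 1.57, 2.43 and 2.06. All 8 genes of the CCT chaperonin, which folds actin and tubulin, were above the line. CCT4 gave 2042, 2417 and 2053, and CCT6B, the testis form of CCT6, gave 43.04, 36.00 and 40.5, close to the line. Of 15 genes of the HSP70 and HSP90 chaperones 12 were above it, led by HSP90AA1 at 2292, 2548 and 2266 and the endoplasmic reticulum chaperone HSPA5 at 2238, 2245 and 2211. The stress-induced HSPA6 (20.3, 26.3 and 22.5) was under it. Of 8 small heat shock proteins HSPB1 (761, 1222 and 1095), HSPB8 (753, 696 and 759) and, close to the line, HSPB3 (38.7, 48.3 and 40.97) were above it, and the lens and glial form CRYAB (7.51, 20.8 and 23.2) was under it. Of 15 cathepsins, the lysosomal proteases, 10 were above it, with CTSB at 1596, 1910.4 and 1695 and the osteoclast type CTSK at 886, 1051 and 964.

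VIM, which encodes vimentin, gave 2073, 2398 and 2009, and the lamin gene LMNA gave 1346, 1217 and 1079. GFAP, the defining filament of astrocytes, gave 2.16, 1.39 and 1.92, with all 3 of its probe sets under the line. The neurofilament genes NEFL (5.54), NEFM (7.56) and NEFH (3.80) were also under it, and the muscle filament gene DES (25.8) lay on both sides. NES, a filament of neural progenitors, was above the line at 63.9, 77.6 and 105 by 1 of its 2 probe sets. Of 44 keratin genes 5 were above the line and 36 under it. KRT10 stood apart from the other keratins at 1288, 1732 and 1721, and all 3 of its probe sets were above the line. The next keratins, KRT9 (47.2) and KRT7 (43.04), were close to the line, and the simple-epithelium pair KRT8 (25.8) and KRT18 (13.8) was under it. Of 19 tubulin genes 14 were above the line, the platelet form TUBB1 (25.3) lay on both sides of it, and the oligodendrocyte and neuron form TUBB4A (12.5) was under it. Of 7 caveolin and cavin genes 4 (57.1%) were above the line and 3 under it. CAV1 gave 2138, 2217 and 2201 and CAVIN1 1155, 1313 and 1218, while the muscle form CAV3 lay at 3.72, 1.94 and 2.62. Among the calcium-binding annexins, 8 of 11 were above the line, with ANXA1 at 2432, 2735 and 2567, ANXA5 at 2103 and ANXA2 at 2062, and ANXA3 (2.96, 0.279 and 2.17) was under it. Of 20 S100 genes 8 were above it. S100A10, a partner of ANXA2, gave 2056, 2388 and 2161, and the leukocyte pair S100A8 (9.24) and S100A9 (0.920) was under it. Of 9 galectins LGALS1 (2237, 2619.9 and 2296), LGALS3 (1352) and LGALS8 (528) were above it.

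Genes of the extracellular matrix and its remodelling were in part above the line, and some of them were bright. Of 43 collagen genes 19 (44.2%) were above it, against 52.1% of all genes. COL6A3, a chain of microfibrillar type VI collagen, gave 1836, 1804 and 1761. Of the chains of type I collagen, COL1A1 gave 1501, 1393 and 1448, while COL1A2 gave 1394, 1368 and 1266. COL3A1, which fibroblasts usually make beside type I collagen, gave 7.18, 10.3 and 5.24, and all 5 of its probe sets were under the line. Of 26 matricellular genes 13 (50%) were above the line, a share close to that of all genes. The brightest were TGFBI (2235), the osteopontin gene SPP1 (2118) and the fibronectin gene FN1 (1985). THBS1 (24.1) and POSTN (4.34) were under it. All 4 metalloprotease inhibitors were above the line, TIMP1 at 1986, 2497 and 2233 and TIMP3 at 80.7, 121 and 98.6. Of 22 matrix metalloprotease genes 8 were above it, led by the gelatinase MMP2 at 1833, 2020.2 and 1795 and the stromelysin MMP3 at 1333, 1249.8 and 1328. For MMP2, 1 of 3 probe sets was above the line and the other two were under it.

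Adhesion genes were uneven, and most cadherins, claudins, connexins and protocadherins were under the line. Of 18 integrin alpha genes 9 (50%) were above the line, a share close to the 52.1% of all genes. The fibronectin receptor chain ITGA5 gave 683, 789.7 and 694 and the vitronectin receptor chain ITGAV 736, 618 and 625. Of 7 integrin beta genes, ITGB1 (1917), ITGB5 (609.6) and ITGB3 (382) were above it, and the leukocyte chain ITGB2 (3.64) was under it. Of 21 classical and type II cadherins 4 were above the line. The neural and mesenchymal cadherin CDH2 reached 94.4, 104 and 81.98, and the epithelial CDH1 gave 11.7, 11.7 and 8.36. CDH11, another mesenchymal cadherin, lay on both sides of the line. Of 20 claudins, the proteins of tight junctions, CLDN12 (537, 374 and 461) was clearly above the line, CLDN19 (38.9, 53.96 and 30.7) was above it in 1 of 3 probe sets, and 17 were under it. Of 13 connexins, GJA1 (1025, 1028 and 993) and GJC1 (328, 314 and 309) were above it. Of 48 protocadherins 11 were above it, and PCDH9, the brightest, gave 564, 436 and 473, with 1 of its 4 probe sets above the line.

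The marker lists of glioblastoma classes and cell types were set against the 52.1% of all genes above the line. Of protein-coding genes alone 59.4% were above it. Genes with more than 1 probe set were above it in 7039 of 10523 cases, and genes with 1 probe set in 3254 of 9252. All 16 measured mesenchymal markers were above the line, against 3 of 11 proneural and 5 of 10 classical markers. The lists were chosen with earlier results of these data known, so this contrast is a description and not independent support for a class. CD44, a hyaluronan receptor, gave 1940.4, 2067 and 1859.5, with 10 of its 13 probe sets above the line. CEBPB, a transcription factor tied to the mesenchymal class, gave 1638, 1835 and 1663. The dimmest mesenchymal markers were CHI3L1 at 135, 152 and 137 and RELB at 48.9, 50.5 and 58.8, and RELB was not above the line in the alternatives with a line of 50 or of 100 units or a second panel of genes. Among the proneural markers PDGFRA (3.15, 7.45 and 5.67), OLIG2 (19.9, 17.1 and 19.8), SOX2 (14.4, 22.1 and 22.4) and DLL3 were under the line, and all 4 PDGFRA probe sets were. Of the fibroblast markers 11 of 13 were above it. Only 5 of these stayed above it in every alternative that gave a call, against 13 of the 16 mesenchymal markers. NT5E, the surface nucleotidase CD73, gave 1523, 1356 and 1383 and FAP 323, 261 and 272, while THY1 gave 15.02, 18.2 and 16.4. The mesenchymal, fibroblast and matrix lists share some genes, such as FN1 and TGFBI, so their counts are not independent.

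**Figure D2:**
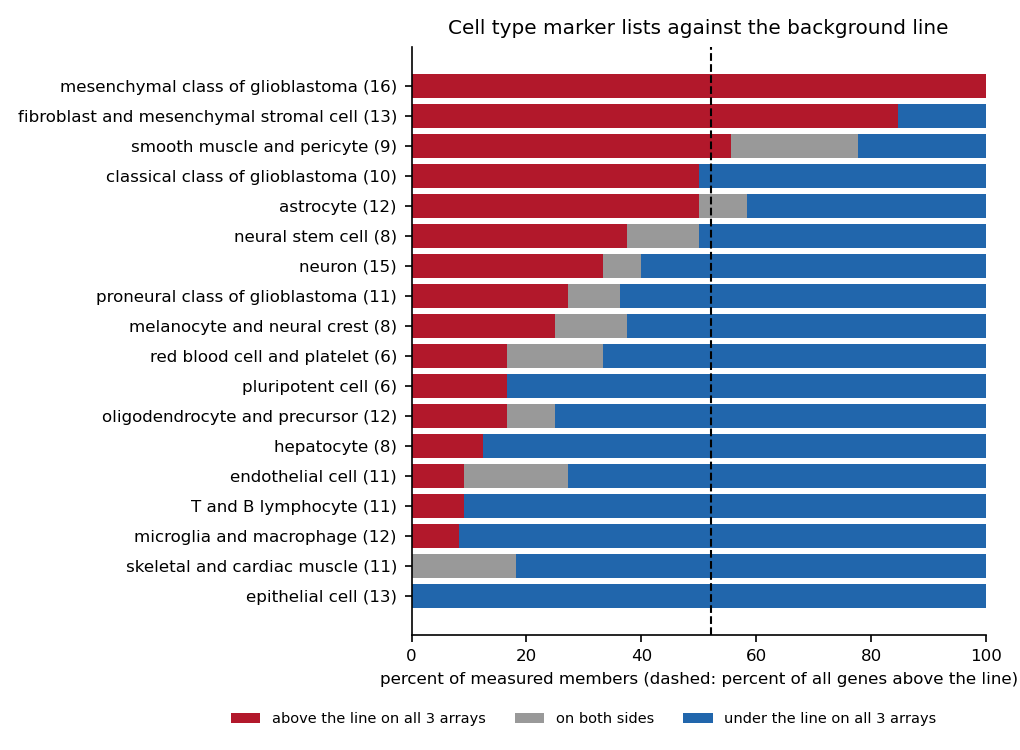
Share of the measured members (horizontal axis, percent) of 18 cell type marker lists above the background line on all 3 control arrays, on both sides of it, or under it on all 3; the number measured stands in brackets. The dashed line is the 52.1% of all genes above the line. The lists were chosen with earlier results of these data known. All 16 mesenchymal markers and 11 of 13 fibroblast markers are above the background line, and none of 13 epithelial or 11 muscle markers. Of these, 13 mesenchymal and 5 fibroblast markers stay above it in every alternative that gave a call.

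Glial markers were divided. Of 12 astrocyte markers 6 were above the line, a share close to the 52.1% of all genes and under the 59.4% of protein-coding genes. The gap-junction gene GJA1 was the brightest, followed by GLUL, glutamine synthetase, at 286, 257 and 269 and the glutamate transporter SLC1A3 at 259.7, 177 and 214, the latter by 1 of 2 probe sets. ALDOC reached 139, 166 and 142 and the transcription factor SOX9 78.4, 77.6 and 80.3. The defining markers GFAP, S100B (1.46, 1.04 and 1.67), AQP4 (8.46, 8.96 and 13.4) and the second glutamate transporter SLC1A2 (11.9, 5.09 and 8.90) were under the line in all of their probe sets. Of 12 oligodendrocyte-lineage markers CNP (353, 316 and 329) and CSPG4 (77.9, 69.9 and 91.5) were above the line, and MOG, MAG, SOX10 (15.98) and OLIG1 (3.94) were under it. Of 8 neural stem cell markers PAX6 (95.1, 116 and 110.1), NES and NOTCH1 (54.8, 49.4 and 53.1) were above it, and PROM1 (8.16, 4.25 and 3.13) and MSI1 (0.835, 2.78 and 1.15) were under it.

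Among 15 neuron markers 5 were above the line. TUBB3, the tubulin used to stain neurons, gave 1659, 1939 and 1725, although its 2 probe sets are of a class that can bind related tubulin transcripts. SNAP25, a protein of synaptic vesicle fusion, gave 314, 299 and 293, and all 3 of its probe sets were above the line. The dendrite protein gene MAP2 gave 165, 165 and 166, the vesicle calcium sensor SYT1 134, 97.00 and 138 and the GABA-synthesising enzyme GAD1 68.1, 94.5 and 101. The neuronal genes STMN2 (1.12, 2.64 and 5.07), DCX (1.64, 10.1 and 6.43), RBFOX3 (15.2, 17.2 and 10.3) and SYP (1.49, 2.43 and 2.41) were under it.

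Most lists of cells outside the glial, neuronal and mesenchymal lineages had at most 1 member above the line. The exception was the melanocyte and neural crest list, with MITF (152, 144 and 142) and TFAP2A (50.6, 61.5 and 63.9) of 8 members above it and the pigment enzyme TYR (39.7) on both sides. None of 13 epithelial markers and none of 11 skeletal and cardiac muscle markers was above it. The single members above it in the remaining lists were PECAM1 (43.9, 47.6 and 41.5) of 11 endothelial markers, CSF1R (30.5, 48.04 and 38.8) of 12 microglial markers, CD79A (66.2, 55.6 and 72.6) of 11 lymphocyte markers, AFP (42.98, 51.4 and 50.1) of 8 hepatocyte markers, HBB (41.02, 53.8 and 43.5) of 6 red cell and platelet markers and LIN28B (96.8, 74.96 and 69.8) of 6 pluripotency markers. LIN28B had the highest mean of these 6 genes, 80.5, and PECAM1 and CD79A were each above it in 1 probe set, with the rest under it. The defining genes PTPRC (3.69), CDH5 (2.60), VWF (4.04) and ALB (4.36) lay far under it. Of the 149 panel genes that set the line, 5 also lay above it on all 3 arrays.

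**Figure D3:**
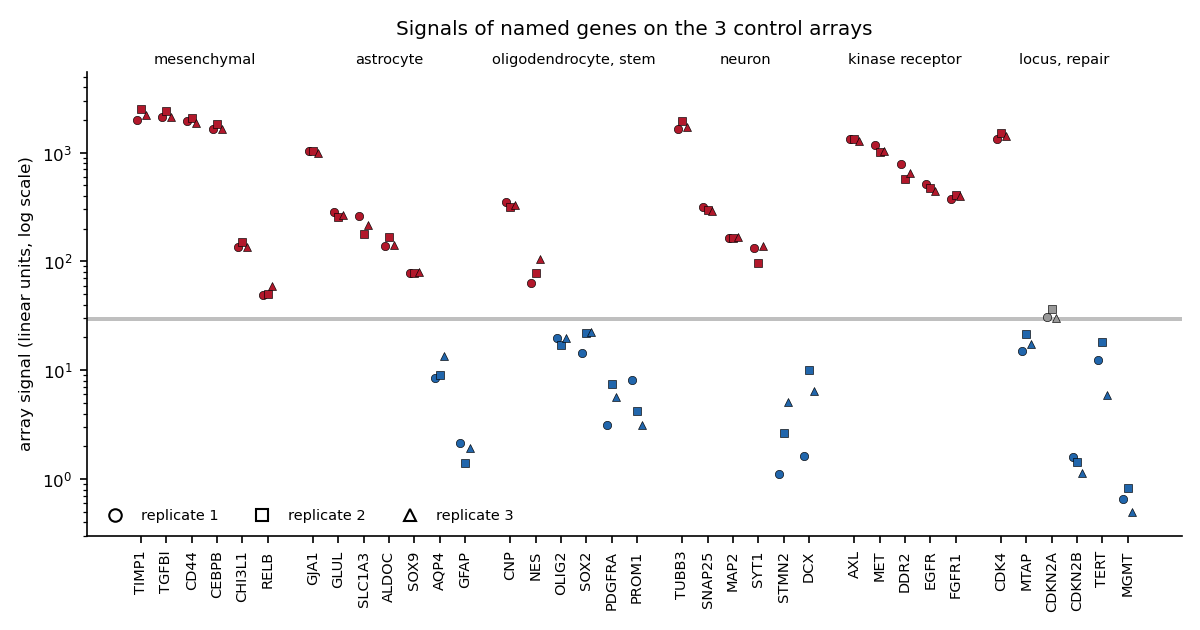
Signal (vertical axis, linear units on a log scale) of marker, receptor and locus genes on each of the 3 control arrays, with symbols for the replicates; red is above the line on all 3 arrays, grey on both sides, blue under it on all 3, and the grey band spans the background lines of 28.2 to 30.6. GJA1 lies at 993 or more on every array and TIMP1, TUBB3, AXL and CDK4 higher still, while GFAP, CDKN2B and MGMT lie at 2.16 or less.

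Receptors and ligands for growth showed a small bright set. Of 51 receptor tyrosine kinase genes 17 were above the line and 30 under it. AXL, a receptor for GAS6, gave 1337, 1322 and 1287 and MET, the receptor of HGF, 1178, 1017 and 1044. The collagen receptor DDR2 gave 787, 569 and 643, EGFR 518, 477 and 448 and FGFR1 374, 405 and 397. All 4 probe sets of MET and of DDR2 were above the line, whereas for EGFR 4 of 9 were above it and 5 under it. PDGFRB was close to the line at 41.6, 37.1 and 49.4, and KDR, the main VEGF receptor of vessels, lay on both sides of it at 36.4, 28.6 and 37.8. Ligands of several of these receptors were above the line in the same cultures. HGF gave 161, 217 and 209, with all 5 of its probe sets above the line. Among 9 EGF-family ligands 5 (55.6%) were above it, with EREG at 1617, 1385 and 1561 and TGFA at 555, 429 and 471. EGF itself was under it at 21.9, 28.6 and 18.5. VEGFA gave 1256, 1216 and 1155, PDGFC 797, 739 and 755 and FGF2 407, 279.8 and 318. Of 17 WNT ligands 4 were above the line, and WNT5A, of the non-canonical branch, was the brightest at 799, 676 and 764.

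Inflammatory ligands were sparse and, where above the line, could be bright. Of 36 interleukin genes 8 were above the line and of 36 CXC and CC chemokine genes 6. IL1B, a main inflammatory cytokine, gave 1177, 1243 and 1171, and both of its probe sets were bright. CXCL8, the neutrophil attractant interleukin 8, gave 1186, 1216 and 1312. IL6 gave 106, 145 and 140.3 and IL15 268, 251 and 282. CXCL2 gave 343, 479 and 491 by 1 of 3 probe sets. No type I interferon gene of 15 was above the line. The promoter of CXCL8 (RefSeq, GRCh38.p14, plus strand, chr4:73740319-73740618) is shown because most of its family was under the line, with the AP-1 motif TGACTCA in capitals.
CXCL8: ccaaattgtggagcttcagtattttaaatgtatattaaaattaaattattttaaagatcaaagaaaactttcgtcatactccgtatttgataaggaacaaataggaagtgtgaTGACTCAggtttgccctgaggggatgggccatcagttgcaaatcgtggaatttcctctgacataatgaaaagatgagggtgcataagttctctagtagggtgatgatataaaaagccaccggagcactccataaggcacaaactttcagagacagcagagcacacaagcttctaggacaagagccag
The motif, on either strand, was present in 23.1% of 26 chemokine promoters, 19.2% of 26 interleukin promoters and 3.74% of all promoters. It was in 3.10% of promoters of genes above the line and 4.59% of those under it. Its part in the signal of CXCL8 was not tested. AP-1 proteins are dimers of JUN and FOS relatives. JUN (1184, 1382 and 1286), FOSL1 (490.3, 635 and 583) and JUND (627) were above the line, FOS (22.7, 24.1 and 30.9) lay on both sides of it, and FOSB (16.7, 18.4 and 17.5) was under it.

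Genes of antigen presentation were above the line in both classes of HLA. All 13 measured class I and antigen-processing genes were above it, with HLA-C at 1741, 2144 and 1901 and HLA-B at 1687, 2076 and 1863. Class II genes, whose usual home is the professional antigen-presenting cell, were above the line in 11 of 17 cases. HLA-DPA1 gave 829, 972 and 903, HLA-DRB1 760.2, 948 and 881 and HLA-DRA 453, 629 and 644, and both HLA-DRA probe sets were above the line. CD74, the invariant chain that accompanies class II, gave 132, 234 and 178 by 1 of 3 probe sets. CIITA, the master regulator of class II, lay at 29.6, 31.1 and 34.99, just over the line, and limma's test against the line did not call it. The leukocyte gene PTPRC and the macrophage gene CD14 (0.986, 0.710 and 0.473) were under the line. Of 26 interferon-stimulated genes 16 (61.5%) were above it, a share close to the 59.4% of protein-coding genes. Among those above it, IFI44 gave 339, 315 and 318, OASL 256, 266 and 262 and ISG15 114, 165 and 177. MX1 (3.45, 7.10 and 6.68), RSAD2 (10.00) and IFI27 (6.24) were under it. Of the sensors of foreign RNA, EIF2AK2 gave 766, 627 and 679.9 and RIGI 69.8, 82.6 and 84.3, whereas IFIH1 (33.5, 27.6 and 24.8) and TLR3 (29.5, 20.98 and 28.9) lay on both sides of the line. Cells without a transfected duplex were not analysed here, and its part in these levels was not tested.

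Developmental transcription factors were mostly under the line, with a few clear members. Of 15 neural bHLH factors, which drive neuron formation, 1 was above it, ATOH8 at 41.3, 48.6 and 43.7. Of 19 SOX genes 4 were above the line, and the brightest, SOX5, gave 109, 78.1 and 92.95. In the HOX clusters, which pattern the body axis, HOXB2 (457, 525 and 492) and HOXB3 (292, 258 and 283) led, followed by HOXD8 (215, 232 and 248) and HOXC6 (145, 154 and 165). In all, 4 of 10 HOXB, 3 of 9 HOXC and 3 of 8 HOXD genes were above it, and 1 HOXA gene had a probe set of its own, HOXA2, which was under it. Of 31 LIM, DLX, NKX and IRX homeobox genes 8 (25.8%) were above the line, against 52.1% of all genes. They included the forebrain genes DLX1 (159.6, 163 and 149.6), DLX2 (205, 187 and 196), LHX6 (164, 161 and 243) and LHX8 (112, 98.9 and 98.9). Others of the list known from the forebrain, DLX5, DLX6, LHX2 and NKX2-1, were under the line. SOX5, ATOH8, DLX1, DLX2 and LHX6 were each above it in 1 probe set. PAX8 reached 253, 318 and 334 in 1 of its 8 probe sets, and none of the other 7 was above the line. Among forkhead genes 15 of 39 were above it, with the proliferation factor FOXM1 at 596, 705 and 603 and FOXD1 at 610.0, 609 and 684. Of 8 factors of the epithelial-to-mesenchymal transition 5 (62.5%) were above it. SNAI2 gave 921, 913 and 929, PRRX1 529, 408 and 439 and ZEB1 304, 228 and 264, while SNAI1 gave 1.37, 1.18 and 5.58. Of the inhibitors of differentiation ID1 gave 1443, 1895 and 1741, ID2 644, 901 and 844 and ID3 342 on average, all above the line, while ID4 (28.1) lay on both sides of it. The Notch targets HES1 (20.1, 27.1 and 28.4) and HES5 (3.75) were under the line, while HEY1 was above it and HEY2 lay on both sides. HES1 was not called under the line with the 90th percentile of the panel or by limma's test. Among 17 KLF genes 12 were above it, with KLF10 at 688, 554 and 635 and KLF6 at 471. Of 38 nuclear receptors 20 (52.6%) were above it, close to the 52.1% of all genes. The glucocorticoid receptor NR3C1 was the brightest at 782, 689 and 709, and NR2F1 gave 365, 394 and 355. Of 16 T-box genes TBX3 (249, 231 and 201), TBX2 (134, 131 and 130.2) and TBX15 (38.7) were above the line.

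Most genes of the cell cycle were above the line. All 25 proliferation genes, all 4 cell-cycle CDKs, 7 of 10 cyclins and 7 of 10 CDK inhibitors and RB family genes were above it. The cyclins CCNA1 (5.47) and CCNB3 (18.9) and the CDK inhibitor CDKN1C (6.38) were under it. RRM2, a subunit of the enzyme that makes deoxynucleotides, gave 1939, 2089 and 2057, and the mitotic ubiquitin enzyme UBE2C gave 1248, 1814 and 1536. CDK4 gave 1327, 1509.6 and 1427 and its partner CCND1 1559, 1524 and 1462, whereas CCND2 gave 8.15, 16.9 and 12.9, with all 4 probe sets under the line. The p53 target CDKN1A gave 705, 750.2 and 718 and the p53 antagonist MDM2 431, 355 and 346. RB1 gave 485, 379.5 and 417. The neurofibromin gene NF1 was under the line at 4.45, 4.57 and 5.13 on its single probe set, so that signal alone does not describe the gene. The repair enzyme MGMT, which removes alkyl groups left by temozolomide, gave 0.656, 0.831 and 0.495 on its single probe set, the lowest signal in its list, in which 8 of 9 genes were above the line. The telomerase gene TERT was under it at 12.5, 18.2 and 5.90, while 7 of the 8 telomere genes measured, ATRX (584, 499.9 and 503) among them, were above it. Against 52.1% of all genes, 9 of 19 BCL2-family genes (47.4%) were above the line. The survival genes MCL1 (1132, 1062 and 1070.3) and BCL2L1 (441, 433 and 368) were among them, and BCL2 itself (23.2, 22.7 and 22.4) was under it. PMAIP1, a killer protein of the same family, gave 539, 526 and 592. Of 10 caspases 6 (60%) were above the line, with CASP2 at 915, 872 and 843 and CASP8 at 347, 319 and 328. The maintenance methyltransferase DNMT1 gave 386, 351 and 349.5 and its recruiter UHRF1 700.1, 589 and 611, while TET1 (14.9, 14.2 and 9.95) was under it.

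The region of chromosome 9 around CDKN2A held a long gap. CDKN2A, whose products restrain CDK4 and MDM2, lay on both sides of the line at 30.8, 36.5 and 30.5, and none of its 3 probe sets was above it. By limma's test against the line its adjusted p was 0.287. CDKN2B gave 1.58, 1.44 and 1.14, and MTAP, a neighbouring enzyme of methionine salvage that nearly all cells use, gave 14.9, 21.7 and 17.6, with all 6 probe sets under the line. Of 21 measured genes listed for this region, CDKN2A itself included, none was above the line, 19 were under it, and CDKN2A and IFNA17 lay on both sides. CDKN2A would be called above the line without replicate 3, IFNA17 without replicate 2, and both with a line at the 90th percentile of the panel. In RefSeq order the gap ran from SMNP over MLLT3 (4.96), FOCAD (1.76), HACD4, the interferon genes and KLHL9 (6.87) to DMRTA1 (2.02) and ELAVL2 (21.3). Interferon genes are silent in most unstimulated cells. The nearest genes above the line on either side, named after their values were seen, were SLC24A2 (64.2, 50.1 and 58.7) and TUSC1 (233, 318 and 309). SLC24A2 was above it in 1 of its 2 probe sets. Loss of CDKN2A is a known feature of many glioma lines, U87 among them, but gene copies were not measured here. The MTAP promoter (RefSeq, GRCh38.p14, plus strand, chr9:21802386-21802685) is shown, with CpG in capitals, as that of a gene under the line with a CpG-rich start.
MTAP: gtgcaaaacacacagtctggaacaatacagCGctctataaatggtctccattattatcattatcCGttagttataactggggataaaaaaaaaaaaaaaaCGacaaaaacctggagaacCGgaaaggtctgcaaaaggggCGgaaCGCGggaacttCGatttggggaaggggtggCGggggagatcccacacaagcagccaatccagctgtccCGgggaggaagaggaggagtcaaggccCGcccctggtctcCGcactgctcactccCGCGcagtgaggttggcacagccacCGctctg
Its 15 CpG dinucleotides give an observed over expected ratio of 0.715. Of all promoters 66.5% had a ratio of 0.6 or more.

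**Figure D4:**
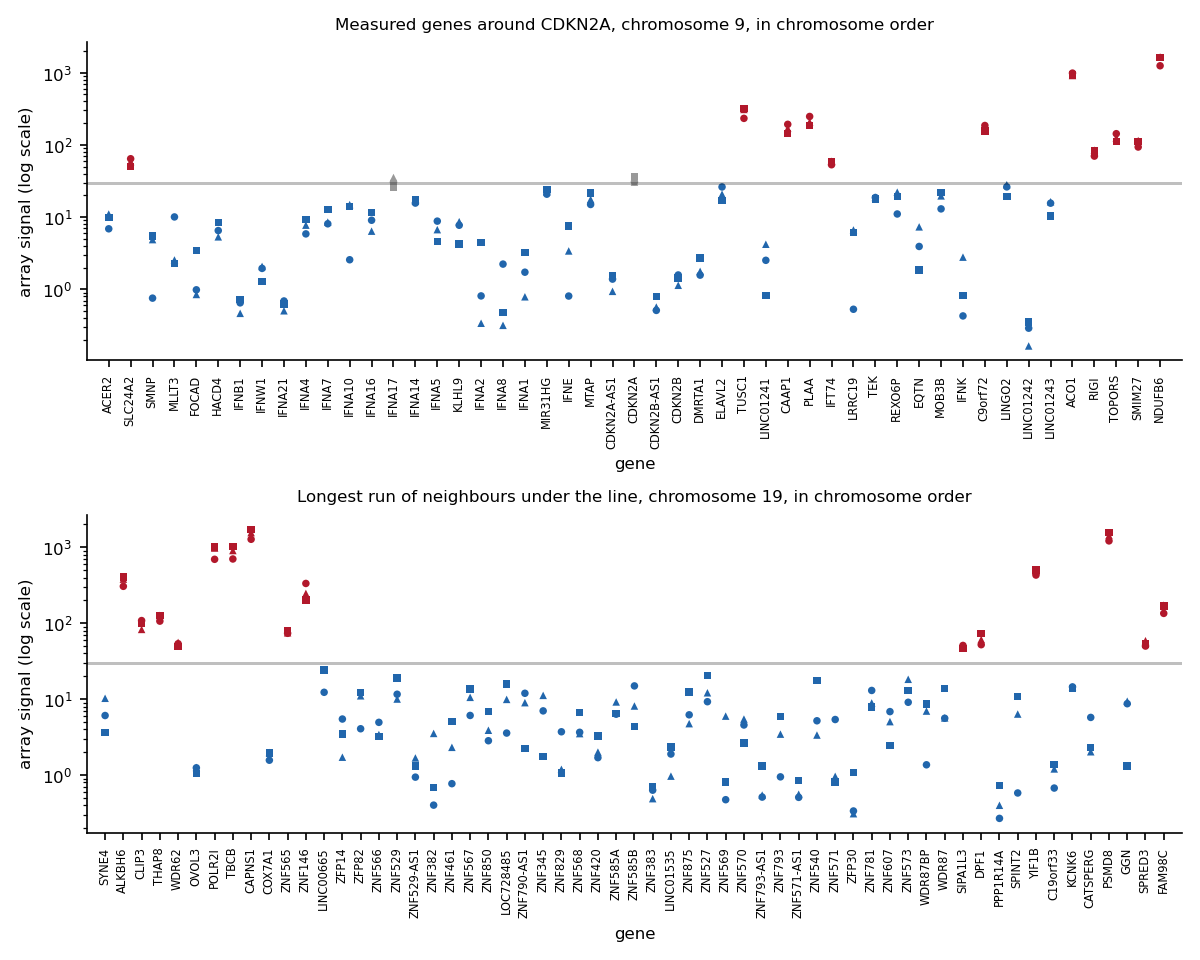
Signal (vertical axis, log scale) on the 3 control arrays of measured genes in chromosome order around CDKN2A on chromosome 9 (top) and along the longest run of genes under the line on chromosome 19 (bottom); circles, squares and triangles are replicates 1 to 3, red is above the line, grey on both sides and blue under it, and the band spans the background lines. Between SLC24A2 and TUSC1, and between ZNF146 and SIPA1L3, no gene is above the line.

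The longest run of neighbouring genes under the line lay on chromosome 19 and was found by scanning the genes in order, so it was chosen after its values were seen. It holds 35 measured genes from LINC00665 to WDR87, most of them ZNF and ZFP genes that encode zinc-finger proteins, many of them repressors with a KRAB domain. ZNF382 gave 0.402, 0.688 and 3.54, ZFP30 0.337, 1.08 and 0.310 and ZNF529 11.6, 18.99 and 10.03. The highest mean in the run was that of LINC00665 at 20.3, with all 4 of its probe sets under the line. On one side ZNF146 (334, 203 and 247) and ZNF565 (73.6, 80.2 and 74.8) were above the line. On the other side SIPA1L3 (50.96, 46.4 and 50.02) and DPF1 (52.1, 73.1 and 61.1) were above it. Of the 4 probe sets of SIPA1L3, 1 was above the line and 2 were under it. The next longest run, of 23 genes, also lay among zinc-finger genes of chromosome 19, from ZNF708 to ZNF276-AS1. Of zinc-finger genes named ZNF or ZFP on chromosome 19, 85 of 225 (37.8%) were above the line, against 165 of 260 (63.5%) on other chromosomes. Without the genes of the 2 runs the share on chromosome 19 was 45.7%. This difference was described after it was seen and was given no test.

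The promoters of ZNF382, inside the run, and ZNF146, the neighbour above the line, are shown with CpG in capitals because both are rich in CpG (RefSeq, GRCh38.p14, plus strand, chr19:36605063-36605362 and chr19:36214856-36215155).
ZNF382: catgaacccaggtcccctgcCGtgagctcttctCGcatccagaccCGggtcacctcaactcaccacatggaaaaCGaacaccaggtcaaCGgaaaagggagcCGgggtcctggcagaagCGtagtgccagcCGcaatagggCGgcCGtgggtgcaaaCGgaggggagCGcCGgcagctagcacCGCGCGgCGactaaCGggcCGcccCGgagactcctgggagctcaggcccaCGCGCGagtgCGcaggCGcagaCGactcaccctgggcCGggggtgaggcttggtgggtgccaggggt
ZNF146: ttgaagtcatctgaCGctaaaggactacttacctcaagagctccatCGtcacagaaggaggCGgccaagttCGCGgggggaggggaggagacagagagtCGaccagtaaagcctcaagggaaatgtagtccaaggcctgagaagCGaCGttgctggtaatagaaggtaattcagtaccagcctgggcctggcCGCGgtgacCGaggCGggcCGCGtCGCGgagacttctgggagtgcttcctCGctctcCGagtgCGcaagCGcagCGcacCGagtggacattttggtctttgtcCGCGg
ZNF382 has 27 CpG dinucleotides and a ratio of 0.781, and ZNF146 has 24 and a ratio of 0.941. Of the 31 genes of the run with a promoter sequence 87.1% had a ratio of 0.6 or more, with a median of 0.80. These promoters were closer in CpG content to genes above the line than to other genes under it, whose values are given next.

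Across all genes, the CpG content of the promoter went with the call. CpG-rich promoters are typical of genes that many tissues use, and CpG-poor promoters with a TATA box of tissue-restricted genes. The window from 250 bases before to 50 after the start was available for 8539 genes above the line and 6236 under it. The median observed over expected CpG ratio was 0.85 above the line and 0.46 under it. A ratio of 0.6 or more was found in 84.7% and 42.0% of them. The share of genes above the line was 16.1% for ratios under 0.2 and 78.3% for ratios of 1 or more. TATAAA, on either strand anywhere in the window, was found in 5.45% of promoters of genes above the line, 13.3% of those under it and 8.76% of all. It was found in 51.7% of 29 keratin, 38.5% of 26 chemokine and 30.8% of 26 interleukin promoters. The GC box GGGCGG, on either strand, was found in 70.7% above the line and 42.8% under it, and the ETS motif CCGGAAG in 20.7% and 6.01%. The ETS motif was also in 35.5% of the 31 promoters of the long run under the line, against 36.2% for ribosomal proteins. These shares describe letters in a window, and the genes are not independent replicates.

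**Figure D5:**
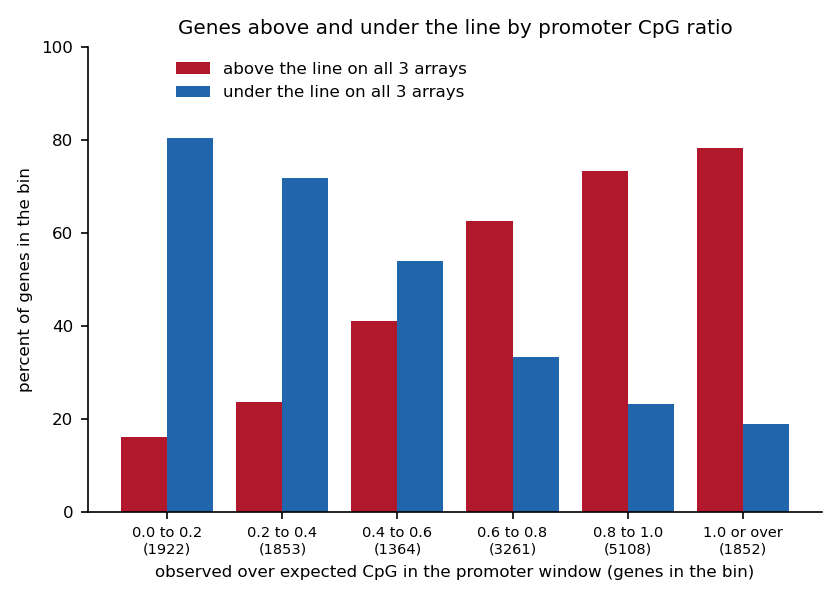
Percent of genes (vertical axis) above and under the background line on all 3 control arrays, by the observed over expected CpG ratio of the promoter window (horizontal axis, with the number of genes in each bin in brackets). The share above the line goes from 16.1% in the lowest bin to 78.3% in the highest.

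Ion channels and neurotransmitter receptors were mostly under the line. None of 9 voltage-gated sodium channel genes was above it, and the brightest, SCN8A, gave 22.97, 25.4 and 14.9. Of 73 potassium channel genes 8 were above it and 63 under it. KCNS3 (407, 381 and 414), a silent subunit, and KCNN4 (262, 277 and 275), a calcium-activated channel, were bright, and the brightest of the other 6 was KCNQ3 at 67.00, 50.3 and 62.8. Of 10 voltage-gated calcium channel genes CACNA1A gave 632, 717 and 701, and 4 of its 5 probe sets were above the line. Of 17 ionotropic glutamate receptor genes GRIA3 (50.6, 60.98 and 65.7) and GRIN2C (28.4, 43.9 and 36.3) were above it, GRIA3 in 1 of 5 probe sets, and of 7 metabotropic ones none. Of 15 GABA-A subunits GABRQ gave 297, 327 and 287 by 1 of 2 probe sets. Of 28 serotonin, dopamine and adrenergic receptors 3 were above it, none over 100 units. AQP9, an aquaporin that also passes glycerol, gave 713, 627 and 593, while the glial AQP4 and the vessel and plexus form AQP1 (5.20, 9.65 and 5.59) were under the line. Among the SLC1A transporters of glutamate and neutral amino acids, SLC1A1 (362, 300.3 and 281), SLC1A5 (288), SLC1A3 and SLC1A4 were above it. Of 14 nicotinic receptor subunits 5 were above the line, led by CHRNA9 (172, 152 and 159.6) and CHRNA5 (140.5, 119 and 126). Of 23 TRP channels 7 were, with MCOLN1, a lysosomal channel, at 195, 201 and 218 and TRPM7 at 181, 126 and 144. Of 15 purinergic receptors P2RX4 (169, 159 and 164) and P2RX7 (48.9, 75.1 and 66.2) were above it, and the microglial P2RY12 (0.708) was under it. Of 16 synaptotagmins 4 were above it, and SYT11 gave 467, 405 and 416.

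Detoxifying enzymes were also uneven. Of 47 cytochrome P450 genes 9 were above the line and 38 under it. CYP1B1, an enzyme of oestrogen and carcinogen metabolism outside the liver, gave 1749, 1555 and 1648, with all 4 probe sets above the line. The next P450, the vitamin D 25-hydroxylase CYP2R1, gave 209, 191 and 210.5. No UDP glucuronosyltransferase of 7 was above it. Of 18 aldehyde dehydrogenase genes 7 were above the line. ALDH1A3, which makes retinoic acid and is used as a marker of mesenchymal glioma stem cells, gave 1727, 1754 and 1632, by 1 of 2 probe sets, and its relative ALDH1A1 gave 3.61, 3.03 and 0.697. Of 9 aldo-keto reductases 6 were above it, with AKR1C2 at 1618, 1934 and 1824 and AKR1C1 at 1387, 1612 and 1587, which are near-identical copies and may share signal. Of 16 glutathione transferases 11 were above it, led by GSTO1 at 2129, 2694 and 2588 and GSTP1 at 757, 910.4 and 1018. Among genes of iron handling, the transferrin receptor TFRC gave 2120.0, 2272 and 2164, and the iron exporter SLC40A1 was under the line at 13.5, 12.9 and 16.6.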

How the data were processed

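The deposited values are intensity signals, 1 per probe set and array, on a linear scale. The submitters' processing notes name GCOS 1.4.0.036 without saying what it did, so the signal algorithm is not given in the sources used here. The 2% trimmed mean of each control array lies close to 100 by the deposited intensity values, and whether the authors scaled them is not given in the sources used here. No further normalization was applied. Of 54675 probe sets 62 AFFX controls were left out. Probe sets were named through the platform annotation: 41091 have 1 symbol, 1801 several and 11721 none, and no symbol changed through Entrez identifiers. Each gene takes its brightest probe set by mean log2 signal.

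The background line is the 95th percentile of a panel of 82 odorant receptor, 20 taste receptor, 33 hair keratin-associated and 14 defensin genes. The line, the calls on all 3 arrays and the order by mean signal were computed with Python 3.11.15, numpy 2.4.6 and pandas 2.3.3. limma 3.58.1 in R 4.3.3 tested log2 signal over the line gene by gene (two-sided, moderated, Benjamini-Hochberg threshold 0.05) and was tested on simulated data. Of 660 genes listed by name, 601 were measured by a probe set with a single symbol. Genes were named by rule: the 40 brightest, the 12 above the line with the widest range, and members of the lists, among them up to 6 of the brightest above the line, every member above it in lists mostly under, and the members under it in lists mostly above. The members and the 114 lists were chosen with earlier results of these data known. Y-linked genes are not reported. Promoter letters and gene order come from RefSeq (GRCh38.p14). Protein sequences were not used here. Arrays give no read depth, and their number limits the precision. Alternatives tried were leaving out each array, the mean over probe sets, only gene-specific probe sets, 2 other normalizations, 5 other lines and limma's test.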

Additional observations from a re-analysis of the deposited data

How the results depend on the processing

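Under the alternatives, between 7256 (a fixed line of 100 units) and 10903 genes (the 90th percentile of the panel) were above the line, and between 7842 and 11868 were under it. Limma's test called 10000 above and 8276 under. The order of the brightest genes depended on the probe sets: 53 of the 100 brightest stayed in the top 100 with the mean of each gene's probe sets, and 30 without probe sets of the _s_at and _x_at classes, which can bind several transcripts and whose removal left 17098 genes. Leaving out 1 array gave 10406 to 10440 genes above the line, 8747 to 8870 under it and 94 to 97 of the 100 brightest shared. Of 114 list counts, 58 fell by more than 1.5 times with a line of 100 units, 40 without the _s_at and _x_at probe sets, 30 with the mean of probe sets, 28 with a line of 50 units and 24 with the second panel. The other alternatives moved at most 13, and quantile normalization and median centring moved none. Without replicate 2, IFNA17, counted among both the type I interferons and the genes around CDKN2A, and 1 of the UDP glucuronosyltransferases were above the line, and endothelial markers above it went from 1 to 2. Without replicate 3, CDKN2A was above the line, and 5 HOXD genes were in place of 3. Of the genes above the line 13.1% had a mean under 2 times it. No paired analysis was possible because only the control group was used and no groups were compared.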

Other observations

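Cancer/testis antigens, which healthy tissue outside the germ line rarely uses, were mostly under the line, and 8 of 30 were above it. MAGEA1 gave 362, 298 and 365 on replicates 1, 2 and 3, MAGEC1 134, 158 and 137 and SSX1 74.3, 118 and 107. MAGEA1 and SSX1 are read by probe sets that can bind related family members. Among the 344 long non-coding RNA genes above the line the brightest, named after their values were seen, were ZFAS1 (1363, 2162 and 1904), DANCR (1042, 1535 and 1381), MALAT1 (877, 1371 and 1218) and NORAD (1062, 1136 and 1255). ZFAS1, DANCR and MALAT1 were lowest on replicate 1 and highest on replicate 2. MIR100HG, the host of a miRNA cluster, gave 884, 726 and 758 by 1 of its 2 probe sets.

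The genes above the line with the widest range between the 3 cultures were mostly dim, and many of them rest on a single deviating array. FAM234A gave 78.5, 249 and 73.9, a range of 1.75 on the log2 scale, and IGHG1 gave 141, 46.3 and 60.1. Brighter examples were EMP3, a membrane protein, at 403, 1009 and 753, and, outside the 12 widest and named after their values were seen, DRAP1, a corepressor of transcription, at 250.1, 545 and 512 and PFN1, which encodes the actin-binding profilin, at 1132, 2264 and 1955. EMP3, DRAP1 and PFN1 were all lowest on replicate 1. Each has 1 probe set, so no second probe set was available to set beside it.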
